A study of Arabidopsis thaliana with 20 samples.

Results

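Leaves of the ilp1-1 mutant of Arabidopsis thaliana after 16 h of high light were compared with ilp1-1 leaves taken just before the high light began (0 h). The comparison uses the 4 libraries whose labels give the genotype ilp1-1 and 16 h or 0 h, 2 at each time, of 20 libraries in the series. The other 16 libraries hold ilp1-1 at 4, 8 and 30 h and the wild type Col-0 at 0, 4, 8, 16 and 30 h, also 2 per group. Of these, Col-0 at 16 h and 0 h (4 libraries) served as the comparison for the genotype. All plants were 4 weeks old and had grown in days of 10 h light and 14 h dark at 100 µmol photons per m2 and s. On the day of the experiment they had 2 h of that light and were then held at 500 µmol photons per m2 and s, unbroken, until 16 h. The plants taken at 30 h had 24 h of high light and then 6 h of normal light. No agent was applied. The 16 h leaves were therefore taken 18 h after the lights came on, 8 h past the usual end of the day, and no libraries from normal light at that hour were analysed here. Amount of light, length of the light period and time of day cannot be told apart in any change below. The tissue was the whole leaf, so fewer cells of a type and less RNA per cell cannot be told apart either. Whether the libraries of a group came from separate plants is not in the labels, and the p-values given here cover only the spread between these samples, which may be technical.

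Each value below is an FPKM, the authors' level of a gene per length and per sequencing depth as they scaled it. Reads recovered from these values came to 13405655 and 12644036 in the ilp1-1 libraries of 16 h. They came to 18951402 and 11387202 in those of 0 h, which were also the highest and the lowest of all 20. The depth in the deposited scaling was not this total. It was 1.16 and 1.17 times the recovered reads in ilp1-1 at 16 h and 0.989 and 0.992 times at 0 h. In Col-0 it was 0.946 and 0.975 times at 16 h and 0.915 and 0.921 times at 0 h. Changes are differences of log2(FPKM + 1), 16 h minus 0 h, ± SE, a scale that understates the change of genes at low levels. A gene was called where its limma p, adjusted by Benjamini-Hochberg over 19311 genes, was under 0.05. As a check of the labelled tissue, the leaf genes RBCS1A and RCA averaged 15106 and 1219 FPKM at 16 h and 20369.7 and 4716 FPKM at 0 h. Of 5 root markers, CASP1, WER and PHT1.1 were below 1 FPKM in all 4 libraries, while SHR had 2.75 and 3.32 FPKM at 16 h and 4.79 and 4.81 FPKM at 0 h and PYK10 8.04 and 7.12 FPKM at 16 h and 10.6 and 9.46 FPKM at 0 h. Of 6 meristem and flower markers, LFY, AP1, SEP3 and WUS were below 1 FPKM in all 4, KNAT1 reached 1.58 FPKM in 1 library, and STM had 3.05 and 2.41 FPKM at 16 h and 0.939 and 4.11 FPKM at 0 h.

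ILP1 (AT5G08550, chromosome 5, 2765642 to 2770282, minus strand), which encodes a protein found with the spliceosome together with NTR1, is the gene that names the mutant. It had 4.32 and 2.72 FPKM at 16 h, against 7.17 and 8.90 FPKM at 0 h, in the libraries labelled ilp1-1, a change of -1.01 ± 0.18 (limma adjusted p = 0.000194). In Col-0 it had 3.37 and 3.45 FPKM at 16 h and 2.63 and 3.88 FPKM at 0 h, a change of 0.066 ± 0.18 (limma adjusted p = 0.799). ILP1 was thus not lower in the libraries labelled ilp1-1 than in Col-0 at 0 h, where both lay above both Col-0 libraries, and at 16 h the genotypes overlapped. A value for the whole gene also counts shortened or interrupted transcripts, so it does not check the label, and every direction given for ilp1-1 is that of the libraries as labelled. Its partner NTR1 had 3.77 and 3.58 FPKM at 16 h and 2.94 and 3.42 FPKM at 0 h and did not pass the test (limma adjusted p = 0.521).

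As background, leaves that meet more light than they can use for carbon fixation make fewer light-harvesting proteins, more pigments that screen light and more proteins that dissipate energy, and over hours they store the extra carbon as starch and sugar. Many of the same genes also follow the circadian clock, a loop in which the morning proteins CCA1 and LHY repress evening genes such as TOC1 by binding the evening element in their promoters. Mitochondria that cannot pass on electrons send a signal to the nucleus through the factors ANAC017 and ANAC013, which switches on the alternative oxidase AOX1A.

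Of 19311 genes tested, 8451 (43.8%) differed between 16 h and 0 h in ilp1-1, 4189 (21.7%) higher and 4262 (22.1%) lower at 16 h. A change of at least 2-fold was passed by 1070 genes (5.54%) upward and 1409 (7.30%) downward. Both 16 h libraries lay above both 0 h libraries for 6770 genes (35.1%) and below both for 6813 (35.3%). Named members of the lists below were chosen by adjusted p of this change or after their values were seen. Where their times do not overlap, this largely follows from the choice and is no separate support. The median change over all genes was -0.003. When reads were scaled to library totals in place of the deposited scaling, the median moved to 0.187, and 6544 genes were called higher and 2866 lower. Changes are given on the deposited scaling. Where a list's counts in ilp1-1 moved by over 1.5 times on library totals, those counts are given too. Every list count below stands beside the shares of all genes. These were 21.7% higher and 22.1% lower in ilp1-1, and 22.2% and 19.8% in Col-0. For the difference between the genotypes' changes they were 4.60% higher and 9.59% lower in ilp1-1.

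The 15 highest genes by fold change were led by AT2G23910, TT7 and AT3G25795. Only called genes with no overlap of the 2 groups could enter these 15 or the 15 lowest, so their lack of overlap follows from the choice. AT2G23910, which has no symbol in the files, had 472 and 478 FPKM at 16 h, against 3.42 and 1.18 FPKM at 0 h (7.26 ± 0.25, limma adjusted p = 2.82e-12). AT3G25795 on chromosome 3, which RefSeq lists as TAS4, a precursor of small RNAs that act on anthocyanin regulators, had 165 and 155 FPKM at 16 h, against 1.11 and 0.460 FPKM at 0 h (6.52 ± 0.20, limma adjusted p = 7.71e-13). Outside the pigment genes described later, GSTF6, a glutathione transferase of defence and stress, had 2413 and 2416 FPKM at 16 h, against 60.1 and 84.2 FPKM at 0 h (5.06 ± 0.16, limma adjusted p = 1.01e-12). In each of these 3 genes the groups were far apart. GSTF5 (AT1G02940) had 38.2 and 37.4 FPKM at 16 h and 0 and 0.363 FPKM at 0 h, and DJC76 (AT5G23240), a plastid J-domain protein, 88.4 and 84.8 FPKM at 16 h and 1.49 and 1.81 FPKM at 0 h. The small nucleolar RNA AT1G04187 had 133 and 126 FPKM at 16 h, against 3.18 and 3.30 FPKM at 0 h (4.94 ± 0.35).

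Among the 15 lowest genes were 6 LHCB genes of the antenna and the clock genes CCA1, LHY and LNK3, all described below. The others included CCD4, an enzyme that cleaves carotenoids, with 0.739 and 0.238 FPKM at 16 h, against 59.3 and 57.6 FPKM at 0 h (-5.34 ± 0.20, limma adjusted p = 6.7e-12). SNG1, which makes the sunscreen ester sinapoylmalate, had 2.61 and 0.932 FPKM at 16 h, against 99.6 and 108 FPKM at 0 h (-5.31 ± 0.21, limma adjusted p = 1.17e-11). COL7, a CONSTANS-like factor, had 0.720 and 1.91 FPKM at 16 h, against 103 and 98.6 FPKM at 0 h (-5.51 ± 0.20, limma adjusted p = 5.36e-12). For all 3 both 16 h libraries were under 3 FPKM, far below both 0 h libraries. GASA6, a gibberellin-regulated peptide, had 1.13 and 0.740 FPKM at 16 h and 57.2 and 78.8 FPKM at 0 h, and AT5G48490 0 and 0.582 FPKM at 16 h and 39.9 and 52.9 FPKM at 0 h. AT4G12735 had 3.71 and 2.08 FPKM at 16 h, against 172 and 203 FPKM at 0 h, and its change differed from Col-0 more than that of any other named gene.

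**Figure D1:**
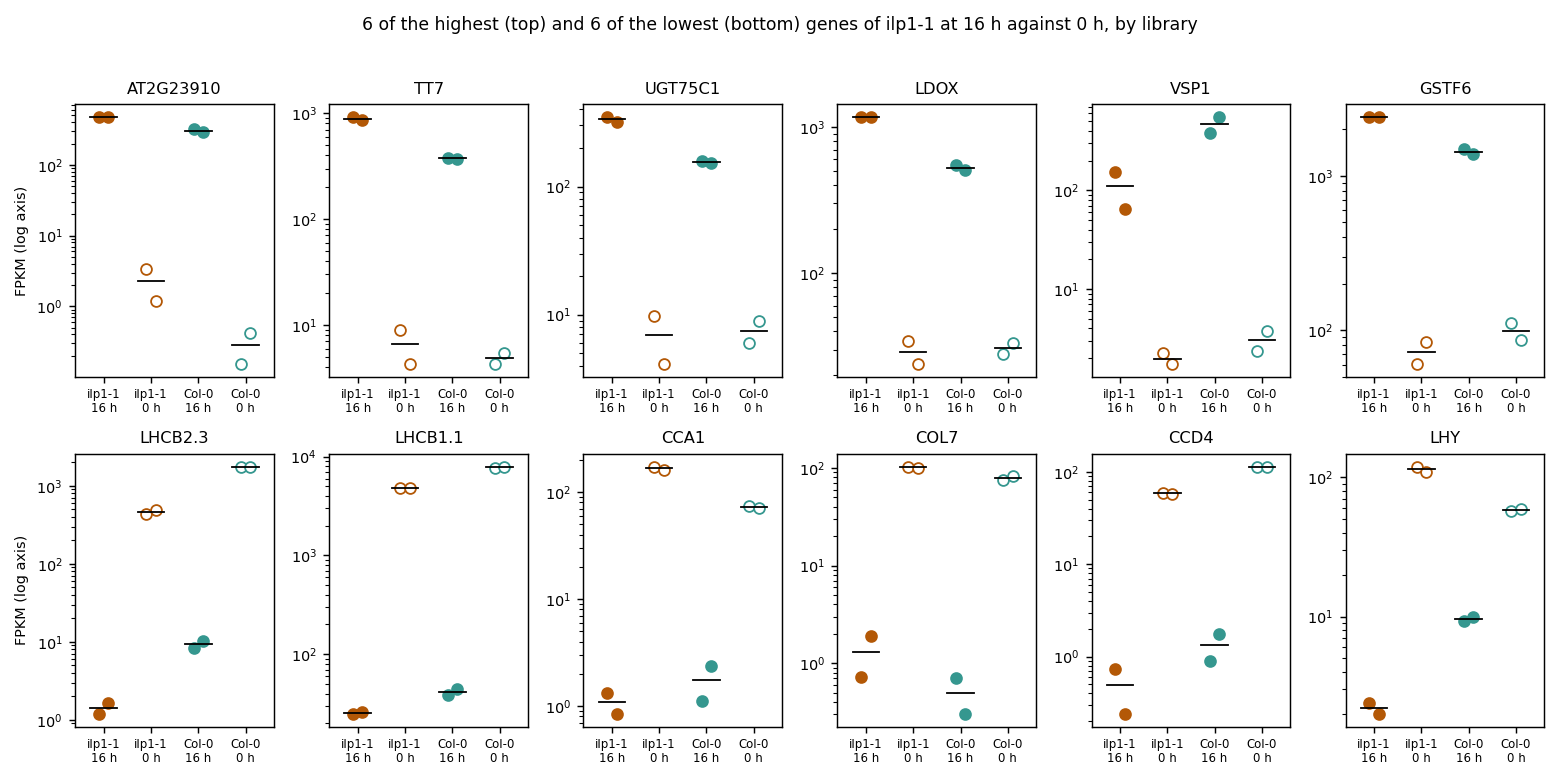
Each point is 1 library and each line the mean of 2, in FPKM on a log axis, for ilp1-1 (brown) and Col-0 (green) at 16 h (filled) and 0 h (open), 6 genes among the 15 highest above and 6 among the 15 lowest below. Only genes whose ilp1-1 groups do not overlap could be chosen, so both libraries of 16 h lie clear of both of 0 h in every panel. Examples are GSTF6 with 2413 and 2416 against 60.1 and 84.2 FPKM and LHCB2.3 with 1.18 and 1.66 against 435 and 484 FPKM.

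The promoters of 4 evening clock genes are printed below, all from those that hold the evening element. Each is the 300 bases before the annotated gene start, 5′ to 3′ on the gene's strand, from RefSeq's TAIR10.1, whose gene starts and ends matched those of the files for 99.95% of 32548 genes found in both. Capitals mark the evening element AAAATATCT or its reverse complement AGATATTTT.
TOC1 (chr5:24674663-24674962, plus strand): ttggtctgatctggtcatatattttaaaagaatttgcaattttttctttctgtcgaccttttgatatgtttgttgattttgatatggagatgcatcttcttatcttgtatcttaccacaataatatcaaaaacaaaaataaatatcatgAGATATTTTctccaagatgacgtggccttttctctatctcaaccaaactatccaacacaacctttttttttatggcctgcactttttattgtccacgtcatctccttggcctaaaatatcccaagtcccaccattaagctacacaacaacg
PRR5 (chr5:8358547-8358846, minus strand): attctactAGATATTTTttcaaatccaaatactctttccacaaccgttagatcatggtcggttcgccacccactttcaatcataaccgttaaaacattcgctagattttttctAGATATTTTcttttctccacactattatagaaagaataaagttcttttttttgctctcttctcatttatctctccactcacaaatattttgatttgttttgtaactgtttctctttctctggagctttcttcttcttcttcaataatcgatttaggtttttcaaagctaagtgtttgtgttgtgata
LUX (chr3:17182742-17183041, plus strand): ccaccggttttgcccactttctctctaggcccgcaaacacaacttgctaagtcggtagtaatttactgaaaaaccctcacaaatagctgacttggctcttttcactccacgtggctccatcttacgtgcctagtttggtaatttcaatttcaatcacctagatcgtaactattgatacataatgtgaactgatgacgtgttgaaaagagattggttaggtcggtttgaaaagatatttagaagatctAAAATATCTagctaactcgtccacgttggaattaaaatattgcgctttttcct
FKF1 (chr1:25508339-25508638, plus strand): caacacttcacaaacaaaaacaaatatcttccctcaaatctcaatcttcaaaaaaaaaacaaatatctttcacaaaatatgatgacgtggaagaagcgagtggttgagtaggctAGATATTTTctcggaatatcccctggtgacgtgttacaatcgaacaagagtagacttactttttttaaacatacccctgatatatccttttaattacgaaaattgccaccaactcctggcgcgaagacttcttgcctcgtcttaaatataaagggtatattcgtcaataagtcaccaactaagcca
TOC1 held 1 match, 151 to 143 bases before its start, and PRR5 held 2, at 292 to 284 and 187 to 179 bases. LUX held 1 at 53 to 45 bases and FKF1 1 at 186 to 178 bases. The element was found on either strand in 7 of 14 evening clock genes, TOC1, PRR5, LUX, FKF1, BOA, GRP7 and GRP8, and in 1 of 14 morning genes, RVE7. The other evening genes, ELF4, ELF3, PRR3, GI, ZTL, LKP2 and CHE, held no match in this window. Of these, ELF4 and ELF3 rose and CHE fell, as given below. The level of PRR5 is not given here. Of the 19171 promoters of this length among tested genes, 554 (2.89%) held it. The share was 4.614% among 4183 genes called higher, 2.236% among 4249 called lower and 2.477% among those not called. Of genes called higher by at least 4-fold, 18 of 193 (9.326%) held it, and of those called lower by at least 4-fold, 8 of 356 (2.247%). The G-box CACGTG, which reads the same on both strands, stood in 7 of 14 morning genes (50%), against 7.944% of all promoters. These are matches of letters, not measured binding.

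Morning and evening arms of the clock stood in opposite states at 16 h. Of 14 morning genes, 13 fell and 1 rose, with a median change of -2.82, and of 14 evening genes, 10 rose, 3 fell and 1 did not pass, with a median of 2.09. On library totals, 10 evening genes were higher and 1 lower. CCA1, a MYB-like repressor of evening genes, had 1.32 and 0.841 FPKM at 16 h, against 173 and 160.1 FPKM at 0 h (-6.34 ± 0.17, limma adjusted p = 1.5e-13). LHY, its close relative, had 2.39 and 1.99 FPKM at 16 h, against 119.6 and 109.6 FPKM at 0 h (-5.18 ± 0.14, limma adjusted p = 1.01e-13). Both were high in both 0 h libraries and near 1 to 2 FPKM at 16 h. The coactivators LNK3, LNK4 and LNK2 had 2.43, 2.56 and 3.29 FPKM on average at 16 h, against 155, 119 and 102 FPKM at 0 h. PRR9, a daytime repressor of CCA1 and LHY, had 0.240 and 0.220 FPKM at 16 h and 29.4 and 23.9 FPKM at 0 h (-4.48 ± 0.17), and PRR7, its relative, 4.15 and 4.73 FPKM at 16 h and 12.9 and 12.4 FPKM at 0 h (-1.33 ± 0.13). RVE8, an activator of evening genes, had 7.23 and 7.61 FPKM at 16 h and 49.3 and 55.7 FPKM at 0 h (-2.66 ± 0.12). RVE2 alone among the morning genes rose, with 52.3 and 43.2 FPKM at 16 h and 7.24 and 6.87 FPKM at 0 h (2.59 ± 0.22, limma adjusted p = 8.14e-08).

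On the evening side, ELF4, ELF3 and LUX form the complex that represses growth genes at dusk. ELF4 had 92.7 and 82.0 FPKM at 16 h, against 0.646 and 0.537 FPKM at 0 h (5.79 ± 0.17, limma adjusted p = 5.14e-13). ELF3 had 14.4 and 9.92 FPKM at 16 h, against 1.14 and 0.999 FPKM at 0 h, and LUX 11.3 and 11.0 FPKM at 16 h, against 2.53 and 2.31 FPKM at 0 h, changes of 2.65 and 1.83. TOC1, a repressor of CCA1, had 27.8 and 27.7 FPKM at 16 h, against 1.88 and 1.61 FPKM at 0 h (3.39 ± 0.13, limma adjusted p = 6.33e-12). All 4 had no overlap between the times. GRP7, a clock-driven RNA-binding protein, was the most abundant of them, with 449 and 457 FPKM at 16 h, against 29.2 and 26.2 FPKM at 0 h (3.99 ± 0.094, limma adjusted p = 2.71e-14). FKF1, a blue-light receptor, had 7.59 and 5.44 FPKM at 16 h and was listed at 0 in both 0 h libraries (limma adjusted p = 8.38e-10). CHE, which represses CCA1, was the strongest faller of the evening list, at 8.83 and 7.78 FPKM at 16 h and 33.5 and 34.7 FPKM at 0 h (-1.92 ± 0.10). GI, a protein that stabilises the receptor ZTL, had 8.87 and 9.34 FPKM at 16 h, against 13.1 and 8.23 FPKM at 0 h, which overlap.

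In Col-0, 12 of the 14 morning genes fell and 1 rose, and 10 evening genes rose and 3 fell, against 42.0% of all genes called in Col-0 (22.2% higher and 19.8% lower). The change in ilp1-1 differed from that in Col-0 for 8 of the 14 morning genes, 3 of them higher and 5 lower, against 14.2% of all genes (4.60% higher and 9.59% lower). From 0 h to 16 h the net fall of LHY was larger in ilp1-1, with a difference of -2.69 ± 0.19 (limma adjusted p = 5.23e-07). Col-0 had 9.25 and 9.96 FPKM of LHY at 16 h and 57.6 and 59.6 FPKM at 0 h. CCA1 differed by -1.57 ± 0.24 (limma adjusted p = 0.000367), with 1.12 and 2.39 FPKM at 16 h and 73.5 and 70.9 FPKM at 0 h in Col-0. In both genes the 0 h libraries of ilp1-1 stood above those of Col-0, and for LHY the 16 h libraries of ilp1-1 also stood below. PRR7 went the other way, with a difference of 2.31 ± 0.19 (limma adjusted p = 1.11e-06) and 1.15 and 1.58 FPKM at 16 h and 25.7 and 30.9 FPKM at 0 h in Col-0. RVE8 and RVE2 differed by -1.66 ± 0.18 and -2.18 ± 0.31. Over the 5 harvests, LHY averaged 115, 7.78, 0.615, 2.19 and 50.1 FPKM at 0, 4, 8, 16 and 30 h in ilp1-1. In Col-0 it averaged 58.6, 0.821, 0.0205, 9.61 and 20.01 FPKM. The lowest mean of LHY was thus at 8 h in both genotypes, and was lower in Col-0. By 16 h LHY had risen from it in both, and further in Col-0.

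**Figure D2:**
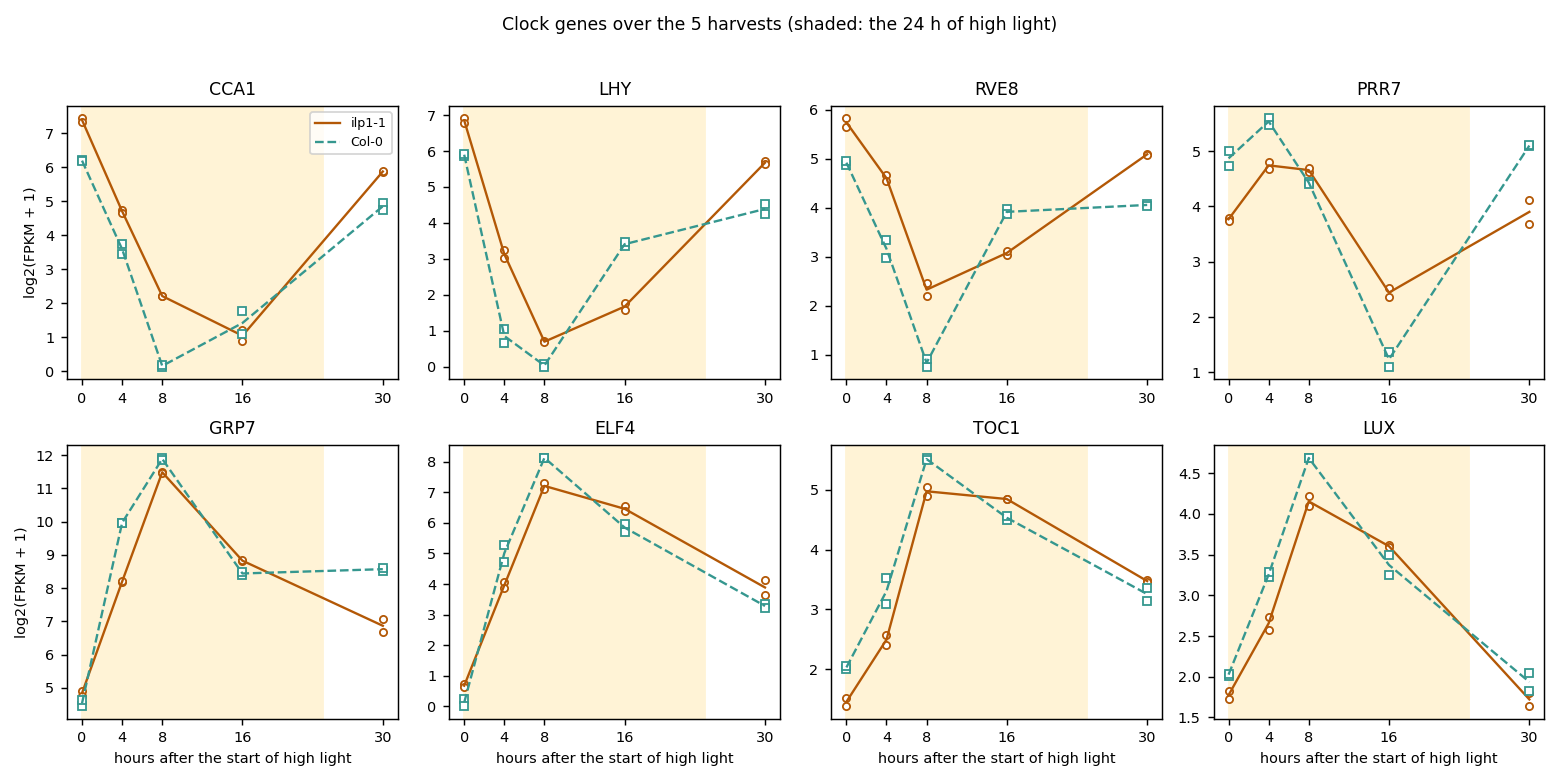
Level as log2(FPKM + 1) against hours after the start of high light for 8 clock genes, with 1 point per library, lines through the means, ilp1-1 in brown and Col-0 in green, and the 24 h of high light shaded. At 16 h LHY stands at 2.39 and 1.99 FPKM in ilp1-1 and 9.25 and 9.96 FPKM in Col-0, and GRP7, ELF4, TOC1 and LUX of ilp1-1 are above their 0 h levels and below their 8 h levels.

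Genes of the light-harvesting antenna, the proteins that carry chlorophyll to the photosystems, had the lowest median change of the 30 gene lists described here. Of 21 members 20 were tested, LHCB1.5 being listed at 0 in all 4 libraries, and 18 fell, 1 rose and 1 did not pass, with a median change of -3.78. Their summed level was 5488 and 5021 FPKM at 16 h, against 64700 and 65993 FPKM at 0 h. Reads scaled to library totals, or any 1 of the 4 libraries left out, gave the same 18 and 1. LHCB1.1, a main protein of the photosystem II antenna, had 24.7 and 26.0 FPKM at 16 h, against 4770.4 and 4844 FPKM at 0 h (-7.51 ± 0.055, limma adjusted p = 1.67e-20). LHCB1.3, the most abundant antenna transcript at 0 h, had 883 and 819 FPKM at 16 h, against 17951 and 17987 FPKM at 0 h (-4.40 ± 0.049, limma adjusted p = 4.17e-18). LHCB2.1, LHCB2.2 and LHCB2.3, the second protein of the main antenna, changed by -7.17, -7.32 and -7.58. Copies of LHCB1 and of LHCB2 are near-identical, so the split of reads among them is uncertain. LHCB3, the third protein of the trimers, had 204 and 178 FPKM at 16 h and 4129 and 3988 FPKM at 0 h (-4.40 ± 0.074). In the photosystem I antenna LHCA4 had 313 and 276 FPKM at 16 h and 5248 and 5408 FPKM at 0 h (-4.18 ± 0.068), while LHCA5, a minor member, changed by -0.71 ± 0.074.

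The member that rose was LHCB4.3, a form of the minor antenna protein CP29 known to build up in strong light, with 371 and 347 FPKM at 16 h, against 45.2 and 44.7 FPKM at 0 h (2.97 ± 0.074, limma adjusted p = 5.68e-14). Its relative LHCB4.1 had 969 and 891 FPKM at 16 h, against 3474 and 3486 FPKM at 0 h, and LHCB4.2 had 68.4 and 56.4 FPKM at 16 h, against 1754 and 1772 FPKM at 0 h. CP29 genes therefore moved in opposite directions, with no overlap of the groups in any of them. LHCB7 had 28.1 and 29.1 FPKM at 16 h and 28.7 and 29.2 FPKM at 0 h, which overlap.

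Subunits of the photosystems and of electron transport coded in the nucleus fell almost throughout, 27 of 28, with 1 higher and a median of -1.71. PSAD2, on the ferredoxin side of photosystem I, had 73.9 and 60.9 FPKM at 16 h, against 866 and 918 FPKM at 0 h (-3.71 ± 0.077, limma adjusted p = 6.22e-15). PSAN, on its plastocyanin side, had 262 and 233 FPKM at 16 h, against 2625 and 2799 FPKM at 0 h (-3.45 ± 0.071, limma adjusted p = 5.94e-15). PSBO1, of the oxygen-evolving complex, had 775 and 715 FPKM at 16 h and 2355 and 2293 FPKM at 0 h (-1.64 ± 0.050). None of these groups overlapped. FNR2, a ferredoxin-NADP reductase, was the gene that rose, with 305 and 290.0 FPKM at 16 h and 219 and 201 FPKM at 0 h (0.50 ± 0.056), while FNR1 had 444 and 459.9 FPKM at 16 h and 683 and 609 FPKM at 0 h (-0.51 ± 0.054). The change was lower in ilp1-1 than in Col-0 for 22 of the 28 and higher for 0, and in Col-0 25 fell and 3 rose. PSAN differed by -1.11 ± 0.10 (limma adjusted p = 2.79e-06), with 748 and 719 FPKM at 16 h and 3874 and 3582 FPKM at 0 h in Col-0.

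Chlorophyll synthesis followed, with 14 of 21 genes lower, 3 higher (5 on library totals) and a median of -0.76. CAO, which makes chlorophyll b, had 15.6 and 13.9 FPKM at 16 h, against 160.0 and 165 FPKM at 0 h (-3.38 ± 0.073, limma adjusted p = 9.87e-15). HEMA1, the first committed step of the pathway, had 43.8 and 43.3 FPKM at 16 h, against 330.3 and 290.2 FPKM at 0 h (-2.80 ± 0.069, limma adjusted p = 4.73e-14). CHLH, a subunit of magnesium chelatase, had 105 and 96.3 FPKM at 16 h, against 517 and 475 FPKM at 0 h (-2.29 ± 0.067, limma adjusted p = 3.76e-13). CRD1, a cyclase of a later step, had 246 and 237 FPKM at 16 h and 1509 and 1364 FPKM at 0 h (-2.57 ± 0.057). Both 16 h libraries were below both 0 h libraries in all 4, which largely follows from their choice by adjusted p. GSA1, GSA2 and HEMF1, of the early steps, were the genes that rose, by 0.85, 0.36 and 0.35. The transcription factors GLK1 and GLK2, which drive these genes and the antenna, averaged 55.6 and 12.7 FPKM at 16 h, against 236 and 119.9 FPKM at 0 h (-2.07 ± 0.091 and -3.14 ± 0.13). In Col-0, 10 chlorophyll genes fell and 7 rose, and the change was lower in ilp1-1 for 14 of the 21 and higher for 0 (12 and 1 on library totals).

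Carbon fixation set the genotypes apart. In the Calvin-Benson cycle, which fixes CO2 in the plastid, 14 of 21 genes fell in ilp1-1 and 1 rose, with a median of -0.31, whereas in Col-0 13 rose and 4 fell. The change was lower in ilp1-1 than in Col-0 for 20 of the 21 genes and higher for 0, against 9.59% and 4.60% of all genes. On library totals, 10 genes fell and 6 rose in ilp1-1. Summed over the list, ilp1-1 had 31747 and 30125 FPKM at 16 h, against 46834 and 44687 FPKM at 0 h, and Col-0 had 68516 and 65354 FPKM at 16 h, against 49500 and 51039 FPKM at 0 h. RCA, Rubisco activase, had 1297 and 1141 FPKM at 16 h, against 5071 and 4359.8 FPKM at 0 h, in ilp1-1 (-1.95 ± 0.069, limma adjusted p = 3.06e-12). In Col-0 it had 3771 and 3877 FPKM at 16 h and 5017 and 5303 FPKM at 0 h, and the difference between the changes was -1.52 ± 0.10 (limma adjusted p = 1.73e-07). The genotypes overlapped at 0 h and were apart at 16 h. PRK, phosphoribulokinase, had 352 and 319 FPKM at 16 h, against 767 and 799 FPKM at 0 h, in ilp1-1 and 715 and 735 FPKM at 16 h, against 775 and 796 FPKM at 0 h, in Col-0, a difference of -1.11 ± 0.071 (limma adjusted p = 1.73e-07).

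For the small subunits of Rubisco, near-identical copies make the split of reads among them uncertain. RBCS1A, the most abundant, had 15434 and 14777 FPKM at 16 h, against 20711 and 20028 FPKM at 0 h, in ilp1-1 (-0.43 ± 0.055, limma adjusted p = 9.72e-06). RBCS2B had 2442 and 2241 FPKM at 16 h, against 2702 and 2671 FPKM at 0 h, in ilp1-1, and 8934 and 8461 FPKM at 16 h, against 3784 and 3909 FPKM at 0 h, in Col-0, a difference of -1.38 ± 0.078 (limma adjusted p = 6.23e-08). Its change in ilp1-1, -0.20, passed, but was 0.038 and did not pass with reads scaled to library totals, nor did it pass without the second library of 16 h. RBCS1B had 1246 and 1235 FPKM at 16 h and 1086 and 1325 FPKM at 0 h in ilp1-1, which overlap, and 3397 and 3131 FPKM at 16 h and 994 and 1038 FPKM at 0 h in Col-0. CP12-2, a redox switch of the cycle, had 542 and 489 FPKM at 16 h and 503 and 612 FPKM at 0 h in ilp1-1, which overlap, and a difference from Col-0 of -1.57 ± 0.12 (limma adjusted p = 6.55e-07). GAPA1, a subunit of plastid glyceraldehyde phosphate dehydrogenase, had 725 and 687 FPKM at 16 h, against 1834 and 1695 FPKM at 0 h (-1.32 ± 0.050, limma adjusted p = 6.96e-12). GAPA2, its second form, had 490.1 and 469 FPKM at 16 h and 1369.8 and 1235 FPKM at 0 h (-1.44 ± 0.060), and both forms fell with no overlap of the times. The gene that rose was RPI3, a ribose phosphate isomerase. It had 193 and 199.7 FPKM at 16 h and 173 and 176 FPKM at 0 h (0.17 ± 0.058). That call was lost without either library of 0 h or without the second of 16 h. It was also lost where the spread was taken from the 4 ilp1-1 libraries compared or without a trend.

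Photorespiration recovers the carbon that Rubisco loses to oxygen. Of 12 genes tested, 9 fell and 1 rose in ilp1-1 (8 and 2 on library totals), with a median of -0.42, and 9 rose and 1 fell in Col-0. The change was lower in ilp1-1 for all 12. PLGG1, the plastid glycolate and glycerate transporter, had 115 and 110.0 FPKM at 16 h, against 194 and 173 FPKM at 0 h, in ilp1-1 and 293 and 265 FPKM at 16 h, against 189 and 187 FPKM at 0 h, in Col-0, a difference of -1.26 ± 0.11 (limma adjusted p = 2.34e-06). GGT1, a peroxisomal aminotransferase, had 362 and 355 FPKM at 16 h, against 753 and 777 FPKM at 0 h (-1.09 ± 0.045, limma adjusted p = 1.69e-11). SHM1, the mitochondrial serine hydroxymethyltransferase, had 604 and 584 FPKM at 16 h, against 819.7 and 781 FPKM at 0 h (-0.43 ± 0.052, limma adjusted p = 5.44e-06). Of the 3, PLGG1 and SHM1 rose in Col-0 and GGT1 fell there too. GDCH1, a subunit of glycine decarboxylase, was the member that rose in ilp1-1, with 691 and 709.8 FPKM at 16 h and 569 and 593 FPKM at 0 h (0.27 ± 0.074), a call lost without the first library of 0 h or the second of 16 h. The thirteenth member, PGLP1, was under the filter and not tested.

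Proteins against excess light and reactive oxygen split, 10 of 25 higher, 13 lower and 2 not passing, with a median of -0.28. Over all genes 21.7% were higher and 22.1% lower. ELIP1, an early light-induced protein that binds chlorophyll under stress, had 3395 and 3232 FPKM at 16 h, against 230.0 and 179 FPKM at 0 h (4.02 ± 0.13, limma adjusted p = 1.34e-12). GPX7, a plastid glutathione peroxidase-like protein, had 46.5 and 49.8 FPKM at 16 h, against 9.66 and 9.31 FPKM at 0 h (2.23 ± 0.12, limma adjusted p = 7.6e-10). ZEP, which turns zeaxanthin back into violaxanthin, had 29.3 and 25.4 FPKM at 16 h, against 128 and 124 FPKM at 0 h (-2.17 ± 0.10, limma adjusted p = 4.49e-11). The 3 genes had no overlap between times. PSBS, which triggers heat dissipation, had 1649.5 and 1625 FPKM at 16 h and 1163 and 1002 FPKM at 0 h (0.60 ± 0.068), and APX1, the cytosolic ascorbate peroxidase, 859.7 and 885 FPKM at 16 h and 501 and 493 FPKM at 0 h (0.81 ± 0.066). CAT2, the leaf catalase, had 299 and 264 FPKM at 16 h and 769 and 674 FPKM at 0 h (-1.35 ± 0.074). ZAT12, a zinc finger of oxidative stress, fell in ilp1-1 (8.25 and 13.3 FPKM at 16 h, against 17.5 and 22.4 FPKM at 0 h) and rose in Col-0 (14.2 and 9.08 FPKM at 16 h, against 5.81 and 3.34 FPKM at 0 h), a difference of -2.04 ± 0.42 (limma adjusted p = 0.00362). The fall of ZAT12 in ilp1-1 did not pass with reads scaled to library totals, without the second library of 0 h or without the first of 16 h.

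Anthocyanin and flavonoid genes, whose products colour leaves and screen them from light, rose in 24 of 25 cases, with 0 lower, 1 not passing and a median of 2.95. Among the enzymes of the early pathway, PAL1 had 532 and 504 FPKM at 16 h, against 117 and 89.2 FPKM at 0 h (2.33 ± 0.10, limma adjusted p = 4.98e-11). TT4, chalcone synthase, had 4043 and 3649 FPKM at 16 h, against 627 and 549 FPKM at 0 h (2.71 ± 0.10, limma adjusted p = 3.33e-12). TT7, flavonoid 3'-hydroxylase, had 922 and 854 FPKM at 16 h, against 8.93 and 4.27 FPKM at 0 h (6.94 ± 0.24, limma adjusted p = 2.16e-12). All 3 stood above their 0 h levels in both 16 h libraries. Of the late anthocyanin enzymes, DFR, dihydroflavonol reductase, had 1184 and 1132 FPKM at 16 h, against 35.9 and 23.0 FPKM at 0 h (5.28 ± 0.20, limma adjusted p = 6.92e-12). LDOX, anthocyanidin synthase, had 1165 and 1171 FPKM at 16 h, against 34.2 and 23.7 FPKM at 0 h (5.31 ± 0.19, limma adjusted p = 4.81e-12). TT19, the transferase that carries anthocyanin to the vacuole, had 938 and 900.4 FPKM at 16 h, against 33.1 and 21.3 FPKM at 0 h (5.06 ± 0.16, limma adjusted p = 1.02e-12). TT5, chalcone isomerase, had 573 and 608 FPKM at 16 h and 97.8 and 95.9 FPKM at 0 h (2.60 ± 0.081). In DFR, LDOX and TT19 the first 0 h library was the higher of the 2, and both were far below 16 h. The sugar transferases UGT75C1 and UGT79B1 changed by 5.50 ± 0.27 and 5.09 ± 0.20.

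DFR, LDOX and TT19 of the late enzymes rose further in ilp1-1 than in Col-0. DFR had 536 and 519 FPKM at 16 h, against 29.97 and 36.6 FPKM at 0 h, in Col-0, a difference of 1.33 ± 0.28 (limma adjusted p = 0.00463). LDOX and TT19 differed by 1.24 ± 0.27 and 1.31 ± 0.23. UGT75C1 differed by 1.27 ± 0.38 (limma adjusted p = 0.037), a call lost without the second library of 0 h of either genotype, without any 1 library of 16 h and under 5 other alternatives, and TT7 by 0.93 ± 0.33, which did not pass (limma adjusted p = 0.0793). At 16 h both ilp1-1 libraries were above both Col-0 libraries in each of these genes, while at 0 h the genotypes overlapped. Over the list of 25 genes the change was higher in ilp1-1 for 7 genes and lower for 2, against 4.60% and 9.59% of all genes. Without the second ilp1-1 library of 0 h these counts were 5 and 4. Among the regulators, the MYB activators PAP1 and PAP2 averaged 194 and 151 FPKM at 16 h, against 45.0 and 3.43 FPKM at 0 h (2.14 ± 0.18 and 5.12 ± 0.33). TT8, their bHLH partner, had 50.8 and 48.8 FPKM at 16 h and 2.101 and 0.928 FPKM at 0 h (4.38 ± 0.17). MYBL2, a repressor of the pathway, rose in ilp1-1 (22.8 and 27.1 FPKM at 16 h, against 13.8 and 16.9 FPKM at 0 h) and fell in Col-0 (14.98 and 14.6 FPKM at 16 h, against 48.8 and 50.8 FPKM at 0 h), a difference of 2.35 ± 0.21 (limma adjusted p = 2.48e-06). EGL3 did not pass, at 1.69 and 1.49 FPKM at 16 h and 2.18 and 1.59 FPKM at 0 h.

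Starch breakdown genes rose in 13 of 17 cases and fell in 2, against 21.7% and 22.1% of all genes, with a median of 1.35. ISA3, a debranching enzyme, had 123 and 122 FPKM at 16 h, against 3.71 and 3.06 FPKM at 0 h (4.82 ± 0.14, limma adjusted p = 2.93e-13). SEX4, a glucan phosphatase, had 144 and 143 FPKM at 16 h, against 20.1 and 18.5 FPKM at 0 h (2.83 ± 0.087, limma adjusted p = 6.76e-13). PHS2, cytosolic glucan phosphorylase, had 120.3 and 119.8 FPKM at 16 h, against 12.6 and 10.0 FPKM at 0 h (3.30 ± 0.12, limma adjusted p = 3.23e-12). The groups were apart in all 3, and the change was larger in ilp1-1 than in Col-0 for ISA3 (1.58 ± 0.19) and PHS2 (1.18 ± 0.17). DPE2, which uses maltose in the cytosol, and PHS1, the plastid phosphorylase, averaged 75.4 and 65.1 FPKM at 16 h, against 15.5 and 13.5 FPKM at 0 h. The beta-amylase BAM3 rose less in ilp1-1, where it had 509 and 478 FPKM at 16 h, against 379.8 and 340.2 FPKM at 0 h, than in Col-0, with 755 and 718 FPKM at 16 h, against 120.2 and 113 FPKM at 0 h, a difference of -2.20 ± 0.082 (limma adjusted p = 7.02e-10). PWD, a phosphoglucan water dikinase, also rose less (-1.39 ± 0.14). For BAM3 both ilp1-1 libraries were below both Col-0 libraries at 16 h and above them at 0 h.

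Genes of starch synthesis rose in 12 of 19 cases and fell in 3, with a median of 0.41. With reads scaled to library totals these counts were 14 and 1, and without the first ilp1-1 library of 0 h they were 12 and 1. GPT2, a glucose phosphate carrier of plastids that sugar induces, had 199 and 191 FPKM at 16 h, against 25.8 and 15.5 FPKM at 0 h (3.22 ± 0.20, limma adjusted p = 3.24e-09). APL3, a large subunit of ADP-glucose pyrophosphorylase, had 121 and 128 FPKM at 16 h, against 42.1 and 39.3 FPKM at 0 h (1.59 ± 0.067, limma adjusted p = 2.51e-11). GBSS1, the granule-bound synthase that makes amylose, had 103 and 100.6 FPKM at 16 h, against 422 and 329.5 FPKM at 0 h (-1.87 ± 0.10, limma adjusted p = 6.14e-10). GPT2 and APL3 were above, and GBSS1 below, their 0 h levels in both 16 h libraries. Sucrose synthesis and sugar transport had 4 of 14 higher and 5 lower (5 and 4 with reads scaled to library totals), against 21.7% and 22.1% of all genes. TPT, which exports triose phosphate from the plastid, had 161 and 146 FPKM at 16 h, against 581 and 537 FPKM at 0 h (-1.86 ± 0.062, limma adjusted p = 1.5e-12). SWEET12, a sucrose exporter, had 25.7 and 20.7 FPKM at 16 h, against 5.11 and 4.94 FPKM at 0 h (2.00 ± 0.17, limma adjusted p = 1e-07), and SWEET11, its relative, 35.6 and 31.9 FPKM at 16 h and 71.3 and 76.6 FPKM at 0 h (-1.11 ± 0.15). The 2 exporters thus changed in opposite directions.

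Markers of carbon starvation, which rise when leaves run out of sugar, had 4 of 17 higher and 6 lower in ilp1-1, with a median of -0.21, against 21.7% and 22.1% of all genes, and 1 higher and 10 lower in Col-0. The share of higher genes in ilp1-1 was thus close to that of all genes. With reads scaled to library totals 4 were higher and 3 lower, and without the second ilp1-1 library of either time 2 were lower. TPS8, a trehalose phosphate synthase-like protein, had 0.537 and 0.422 FPKM at 16 h, against 4.51 and 4.97 FPKM at 0 h (-1.96 ± 0.18, limma adjusted p = 2.55e-07). GDH1 and GDH2, subunits of glutamate dehydrogenase, averaged 5.27 and 16.3 FPKM at 16 h, against 12.5 and 7.92 FPKM at 0 h (-1.11 ± 0.12 and 0.95 ± 0.14). PRODH1, which breaks down proline, had 8.25 and 5.64 FPKM at 16 h, against 1.496 and 1.96 FPKM at 0 h (1.53 ± 0.20, limma adjusted p = 1.37e-05). Of these, TPS8 and GDH1 fell and GDH2 and PRODH1 rose. The change was higher in ilp1-1 for 6 members and lower for 0, against 4.60% and 9.59% of all genes. At 0 h TPS8, TPS11 and SEN1 averaged 4.74, 1.09 and 0.274 FPKM in ilp1-1 and 17.8, 8.63 and 3.63 FPKM in Col-0, with no overlap of the genotypes.

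Nitrogen uptake and assimilation had 6 of 23 genes tested higher and 14 lower, with a median of -0.47. Of all genes, 21.7% were higher and 22.1% lower, so the share of higher genes was close to that of all genes. NPF2.13, a nitrate transporter that moves nitrate out of old leaves, had 66.4 and 59.98 FPKM at 16 h, against 15.1 and 16.5 FPKM at 0 h (1.93 ± 0.11, limma adjusted p = 1.01e-09). GLN1.1 and GLN1.2, cytosolic glutamine synthetases, went opposite ways, averaging 135 and 114 FPKM at 16 h, against 41.3 and 275 FPKM at 0 h (1.72 ± 0.15 and -1.27 ± 0.064). GLN2, the plastid form that recovers ammonium of photorespiration, had 607 and 576 FPKM at 16 h, against 745 and 624 FPKM at 0 h, in ilp1-1 and rose in Col-0, with 1391 and 1322 FPKM at 16 h, against 805 and 820.3 FPKM at 0 h, a difference of -0.94 ± 0.10 (limma adjusted p = 1.33e-05). Its change in ilp1-1, -0.21, passed, but was 0.031 and did not pass with reads scaled to library totals, nor did it pass without the first library of 0 h or the second of 16 h. NIA2, the main nitrate reductase, had 113 and 107 FPKM at 16 h and 161 and 144 FPKM at 0 h (-0.47 ± 0.093), and NPF6.3, a nitrate transporter and sensor, 37.9 and 30.9 FPKM at 16 h and 64.7 and 62.9 FPKM at 0 h (-0.88 ± 0.091). Both libraries of 16 h were lower in these. BT1, a BTB protein that limits nitrogen use, fell in ilp1-1 (9.01 and 6.69 FPKM at 16 h, against 21.2 and 14.3 FPKM at 0 h) and rose in Col-0 (26.53 and 25.2 FPKM at 16 h, against 5.12 and 4.34 FPKM at 0 h), a difference of -3.30 ± 0.26 (limma adjusted p = 9.51e-07). BT2, its relative, rose in both genotypes and less in ilp1-1 (-2.21 ± 0.26). Phosphate starvation genes rose in 7 of 9 cases and fell in 1, with a median of 1.01, and SPX1, a sensor of phosphate status, had 43.8 and 43.3 FPKM at 16 h, against 22.6 and 23.65 FPKM at 0 h (0.89 ± 0.15). IPS1, a decoy RNA for a miRNA, and PS2, a phosphatase, averaged 5.64 and 32.7 FPKM at 16 h, against 0.655 and 10.6 FPKM at 0 h.

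Heat shock and protein folding genes fell in 16 of 24 tested cases and rose in 3, with a median of -1.34, and in Col-0 9 fell and 3 rose. Over all genes 22.1% fell and 21.7% rose in ilp1-1, and 19.8% and 22.2% in Col-0. HSP17.6II, a small heat shock protein of the cytosol, had 0.656 and 1.45 FPKM at 16 h, against 58.2 and 44.8 FPKM at 0 h (-4.69 ± 0.26, limma adjusted p = 7.16e-10). HSP23.5, a small heat shock protein of mitochondria, had 10.4 and 11.2 FPKM at 16 h, against 233 and 169 FPKM at 0 h (-4.08 ± 0.30, limma adjusted p = 1.98e-08). HSP70-4, a cytosolic chaperone, had 5.89 and 5.32 FPKM at 16 h, against 126 and 99.7 FPKM at 0 h (-4.10 ± 0.18, limma adjusted p = 5.27e-11). In all 3 genes the high samples were the 2 ilp1-1 libraries of 0 h, and Col-0 averaged 1.74, 3.06 and 12.7 FPKM at 0 h. HSFA2, the heat stress factor that maintains such genes, had 1.13 and 1.54 FPKM at 16 h, against 15.3 and 11.6 FPKM at 0 h (-2.62 ± 0.23, limma adjusted p = 1.56e-07). HSP101, a disaggregase, had 2.96 and 2.00 FPKM at 16 h and 12.3 and 12.04 FPKM at 0 h (-1.93 ± 0.18). The genes that rose were BIP1, BIP2 and BIP3, chaperones of the endoplasmic reticulum, averaging 222, 146 and 18.0 FPKM at 16 h, against 86.8, 55.4 and 7.97 FPKM at 0 h. BIP3 did not pass without the first library of 0 h or the second of 16 h.

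The change of the list was lower in ilp1-1 than in Col-0 for 12 genes and higher for 2, or for 0 without the first Col-0 library of 0 h or the second of 16 h. Of all genes, 9.59% had a lower and 4.60% a higher change in ilp1-1. HSP17.6II differed by -4.15 ± 0.37 (limma adjusted p = 2.34e-06), HSP17.6A by -3.73 ± 0.54 (limma adjusted p = 0.000195) and HSP70-4 by -2.47 ± 0.26 (limma adjusted p = 1.02e-05). The call of HSP17.6A was lost with a pseudocount of 0.1 and in limma-voom on recovered reads. At 16 h the summed level was 1187 and 1206 FPKM in ilp1-1 and 1109 and 1004 FPKM in Col-0, and at 0 h 2119 and 1852 FPKM in ilp1-1 and 1484 and 1449 FPKM in Col-0. The heat shock element, searched as GAANNTTC, which reads the same on both strands, was found in 6 of 24 promoters of the list (25%), against 11.34% of all. These were HSFA2, HSFA7A, HSP17.4, HSP17.6C, HSP90.1 and BIP2, of which BIP2 rose and HSFA7A did not pass, while HSP17.6II, HSP17.6A, HSP23.5, HSP70-4 and HSP101 held no match in this window.

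Of 18 mitochondrial stress genes tested, 9 fell, 1 rose and 8 did not pass in ilp1-1, with a median of -0.57. Over all genes 22.1% fell and 21.7% rose. In Col-0 4 of the 18 fell and 2 rose, against 19.8% and 22.2% of all genes. With reads scaled to library totals 9 fell and 3 rose in ilp1-1. AOX1A, the alternative oxidase that lets electrons bypass part of the respiratory chain, had 35.04 and 31.7 FPKM at 16 h, against 248 and 217 FPKM at 0 h (-2.76 ± 0.11, limma adjusted p = 7.35e-12). ANAC013, a factor of the mitochondrial signal, had 11.96 and 10.9 FPKM at 16 h, against 115 and 98.2 FPKM at 0 h (-3.11 ± 0.15, limma adjusted p = 9.13e-11). AT2G41730, a marker of that signal, had 10.3 and 10.7 FPKM at 16 h, against 291 and 329 FPKM at 0 h (-4.75 ± 0.26, limma adjusted p = 7.11e-10). Here too the high samples were the ilp1-1 libraries of 0 h, and Col-0 averaged 23.0, 6.69 and 2.80 FPKM at 16 h and 24.2, 8.01 and 4.70 FPKM at 0 h. UPOX and UGT74E2, further targets, changed by -2.24 ± 0.21 and -3.25 ± 0.30. ANAC017, the membrane-bound factor upstream, had 15.5 and 15.3 FPKM at 16 h and 26.9 and 25.3 FPKM at 0 h (-0.73 ± 0.089). NDA1, an internal NADH dehydrogenase that the clock also drives, fell in both genotypes, with a difference of -1.43 ± 0.13.

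In ilp1-1 the summed level of the mitochondrial stress list was 1030.0 and 987 FPKM at 0 h, 499.5 and 495 at 4 h, 321 and 346 at 8 h, 178 and 188 at 16 h and 283 and 347 at 30 h. In Col-0 it was 157 and 148 FPKM at 16 h and 200.1 and 209 FPKM at 0 h. The 16 h value was thus the lowest of the 5 times in ilp1-1, and the 2 genotypes were apart at both 16 h and 0 h. AOX1A averaged 232, 102, 82.9, 33.3 and 58.2 FPKM at 0, 4, 8, 16 and 30 h in ilp1-1.

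Salicylic acid and immunity genes rose in 13 of 25 cases and fell in 1 (16 and 0 on library totals), with a median of 0.72, while in Col-0 2 rose and 5 fell (2 fell without the first Col-0 library of 0 h and 3 without the second of 16 h). The ilp1-1 count rests on few libraries: without the first ilp1-1 library of 0 h 7 rose, and without the second of 16 h 6 rose. PR2, a glucanase of defence, had 359.6 and 505 FPKM at 16 h, against 106 and 162 FPKM at 0 h (1.69 ± 0.45, limma adjusted p = 0.00606). EDS5, which exports the precursor of salicylic acid, had 18.1 and 25.5 FPKM at 16 h, against 6.89 and 7.80 FPKM at 0 h (1.43 ± 0.19, limma adjusted p = 1.34e-05). EDS1, a hub of immune signalling, had 23.3 and 28.9 FPKM at 16 h, against 11.9 and 14.0 FPKM at 0 h (0.95 ± 0.15, limma adjusted p = 8.75e-05). In each gene the second library was the higher of its pair and the times did not overlap, but PR2 did not pass without the first library of 0 h or the second of 16 h. WRKY46, a factor of basal defence, had 24.6 and 34.0 FPKM at 16 h, against 9.49 and 14.7 FPKM at 0 h (1.23 ± 0.21), and SARD1, which switches on salicylic acid synthesis, 18.7 and 23.4 FPKM at 16 h, against 7.61 and 13.0 FPKM at 0 h (1.00 ± 0.19). PR1, the best-known marker, had 223 and 370.3 FPKM at 16 h and 399 and 715 FPKM at 0 h and did not pass (limma adjusted p = 0.235). Over all genes the change was higher in ilp1-1 than in Col-0 for 4.60% and lower for 9.59%. The change was higher in ilp1-1 than in Col-0 for 8 members and lower for 0, among them EDS1 (1.05 ± 0.21, limma adjusted p = 0.00324), but it was 1 without the first ilp1-1 or the first Col-0 library of 0 h, 2 without the second library of 16 h of either genotype and 4 without the first of Col-0.

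Jasmonate genes rose in 12 of 22 tested cases and fell in 3 (14 and 0 with reads scaled to library totals), with a median of 0.66, and without the first ilp1-1 library of 0 h or the second of 16 h 1 fell. Over all genes 21.7% rose and 22.1% fell. AOC2, allene oxide cyclase, had 404 and 380.0 FPKM at 16 h, against 51.5 and 40.8 FPKM at 0 h (3.07 ± 0.11, limma adjusted p = 6.06e-12). LOX2, the plastid lipoxygenase of the pathway, had 469 and 409.9 FPKM at 16 h, against 149.7 and 103 FPKM at 0 h (1.81 ± 0.14, limma adjusted p = 3.86e-08). VSP1, a storage protein that jasmonate induces, had 155 and 64.1 FPKM at 16 h, against 2.23 and 1.72 FPKM at 0 h (5.08 ± 0.37, limma adjusted p = 1.85e-08). The 2 libraries of 16 h were far apart for VSP1, and both lay above 0 h. In Col-0 VSP1 had 378 and 555 FPKM at 16 h and 2.35 and 3.80 FPKM at 0 h, a difference of -1.75 ± 0.53 (limma adjusted p = 0.0363). That call was lost on library totals, in limma-voom on recovered reads, without either ilp1-1 library of 0 h or the second of 16 h, without the first Col-0 library of 0 h or the second of 16 h, and under 4 other alternatives. JAZ9, a repressor of the response, had 92.5 and 76.5 FPKM at 16 h and 90.3 and 57.9 FPKM at 0 h in ilp1-1, which overlap, and 152 and 136 FPKM at 16 h and 43.1 and 44.4 FPKM at 0 h in Col-0. MYC2 was listed at 0 in all 4 ilp1-1 libraries. Its Col-0 levels are not given here, so no difference between the genotypes is read from these zeros.

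Cold, drought and abscisic acid genes fell in 11 of 20 tested cases and rose in 4, with a median of -0.68. Of all genes, 22.1% fell and 21.7% rose, so the share that rose was close to that of all genes. COR47, a dehydrin, had 11.7 and 9.46 FPKM at 16 h, against 39.3 and 45.5 FPKM at 0 h (-1.91 ± 0.27, limma adjusted p = 2.48e-05). P5CS1, which makes proline, had 17.5 and 18.9 FPKM at 16 h, against 70.9 and 66.4 FPKM at 0 h (-1.86 ± 0.14, limma adjusted p = 3.63e-08). COR27, a cold- and clock-regulated gene, had 17.9 and 14.1 FPKM at 16 h, against 0.301 and 0.375 FPKM at 0 h (3.66 ± 0.25, limma adjusted p = 8.67e-09). COR28, its relative, had 5.31 and 5.49 FPKM at 16 h and was listed at 0 in both 0 h libraries. COR47 and P5CS1 were lower and COR27 and COR28 higher at 16 h in both libraries. COR15A rose in ilp1-1 (158 and 169 FPKM at 16 h, against 69.0 and 71.6 FPKM at 0 h) and did not pass in Col-0 (195 and 169 FPKM at 16 h and 226 and 204 FPKM at 0 h), a difference of 1.45 ± 0.24 (limma adjusted p = 0.000742).

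Light signalling and shade genes fell in 13 of 19 tested cases and rose in 3, against 22.1% and 21.7% of all genes, with a median of -0.49. PIF4, a growth factor that phytochrome removes in light, had 1.36 and 1.48 FPKM at 16 h, against 21.0 and 26.1 FPKM at 0 h (-3.34 ± 0.16, limma adjusted p = 8.51e-11), and fell less than in Col-0 (1.75 ± 0.22, limma adjusted p = 5.2e-05). PIF5, its relative, had 9.89 and 8.07 FPKM at 16 h and 86.4 and 90.8 FPKM at 0 h (-3.17 ± 0.11). HY5, a transcription factor of light signalling, had 32.2 and 28.2 FPKM at 16 h and 24.5 and 20.7 FPKM at 0 h (0.40 ± 0.11). That call was lost without the second library of 0 h or the first of 16 h. CRY1, a blue-light receptor, had 17.1 and 14.2 FPKM at 16 h and 39.4 and 39.9 FPKM at 0 h (-1.29 ± 0.10). The groups were apart in these 4 genes. Glucosinolate synthesis had 3 of 14 higher and 7 lower (5 and 6 with reads scaled to library totals), against 21.7% and 22.1% of all genes, with MYB34, a regulator of the indole branch, at 5.89 and 4.81 FPKM at 16 h and 27.6 and 24.1 FPKM at 0 h (-2.08 ± 0.13). Its count of higher genes was 5 without the first ilp1-1 library of 0 h and 1 without the second, or without the first of 16 h.

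Of 29 spliceosome and SR protein genes, ILP1 among them, 6 rose, 4 fell and 19 did not pass, with a median of 0.02, against 21.7% and 22.1% of all genes. With reads scaled to library totals 12 rose and 3 fell, and without the first ilp1-1 library of 16 h 3 rose. The largest changes besides ILP1 were those of PRL2, a relative of the complex member PRL1, with 7.59 and 8.03 FPKM at 16 h, against 2.88 and 2.63 FPKM at 0 h (1.23 ± 0.15, limma adjusted p = 4.87e-06), and of RS31A, an SR protein, with 8.69 and 9.59 FPKM at 16 h, against 4.23 and 3.43 FPKM at 0 h (1.07 ± 0.19, limma adjusted p = 0.000225). SR45A, an SR-like protein, fell, at 28.9 and 28.6 FPKM at 16 h and 53.6 and 42.9 FPKM at 0 h (-0.72 ± 0.12). Splicing itself was not measured by these values.

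Cytosolic ribosomal proteins rose in 166 of 199 tested cases and fell in 1 (183 and 0 on library totals), with a median of 0.44, and in Col-0 181 rose and 1 fell. RPS19C of the small subunit had 375 and 401 FPKM at 16 h, against 222 and 232 FPKM at 0 h (0.77 ± 0.055, limma adjusted p = 1.42e-08), and RPL28A of the large subunit 568 and 584 FPKM at 16 h, against 294 and 302 FPKM at 0 h (0.95 ± 0.068, limma adjusted p = 1.47e-08). The shift was small in each gene but ran through both subunits. The change was lower in ilp1-1 for 21 of them and higher for 2, near or under the 9.59% and 4.60% of all genes, and the count of lower genes was 5 without the second Col-0 library of 0 h or the first of 16 h, 44 without the first ilp1-1 library of 0 h, and 2, with 7 higher, with reads scaled to library totals. HTA7, a histone H2A gene, had 41.4 and 49.98 FPKM at 16 h and 60.2 and 73.4 FPKM at 0 h (-0.54 ± 0.11). Histone genes had 8 of 35 lower and 0 higher in ilp1-1, with a median of -0.18, against 22.1% and 21.7% of all genes, so the share of lower genes was close to that of all genes. In Col-0 4 were lower and 15 higher, against 19.8% and 22.2% of all genes. The change was lower in ilp1-1 for 16, against 9.59% of all genes (8 on library totals, and 10 without the second Col-0 library of 0 h or the first ilp1-1 library of 16 h). Without that Col-0 library 9 rose and 2 fell in Col-0. Scaled to library totals, 3 histone genes were higher and 3 lower in ilp1-1 and the median was 0.036. Without the second ilp1-1 library of 0 h 3 were lower, and without the first of 16 h 4. Genes of the plastid genome, whose transcripts mostly lack the poly-A tail that these libraries select, had 5 of 108 higher and 11 lower, and 8 and 8 with reads scaled to library totals. Without the second ilp1-1 library of 0 h 3 were higher, and without the first of 16 h 2. They took 0.0295 and 0.0262% of the reads at 16 h and 0.0349 and 0.0313% at 0 h.

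**Figure D3:**
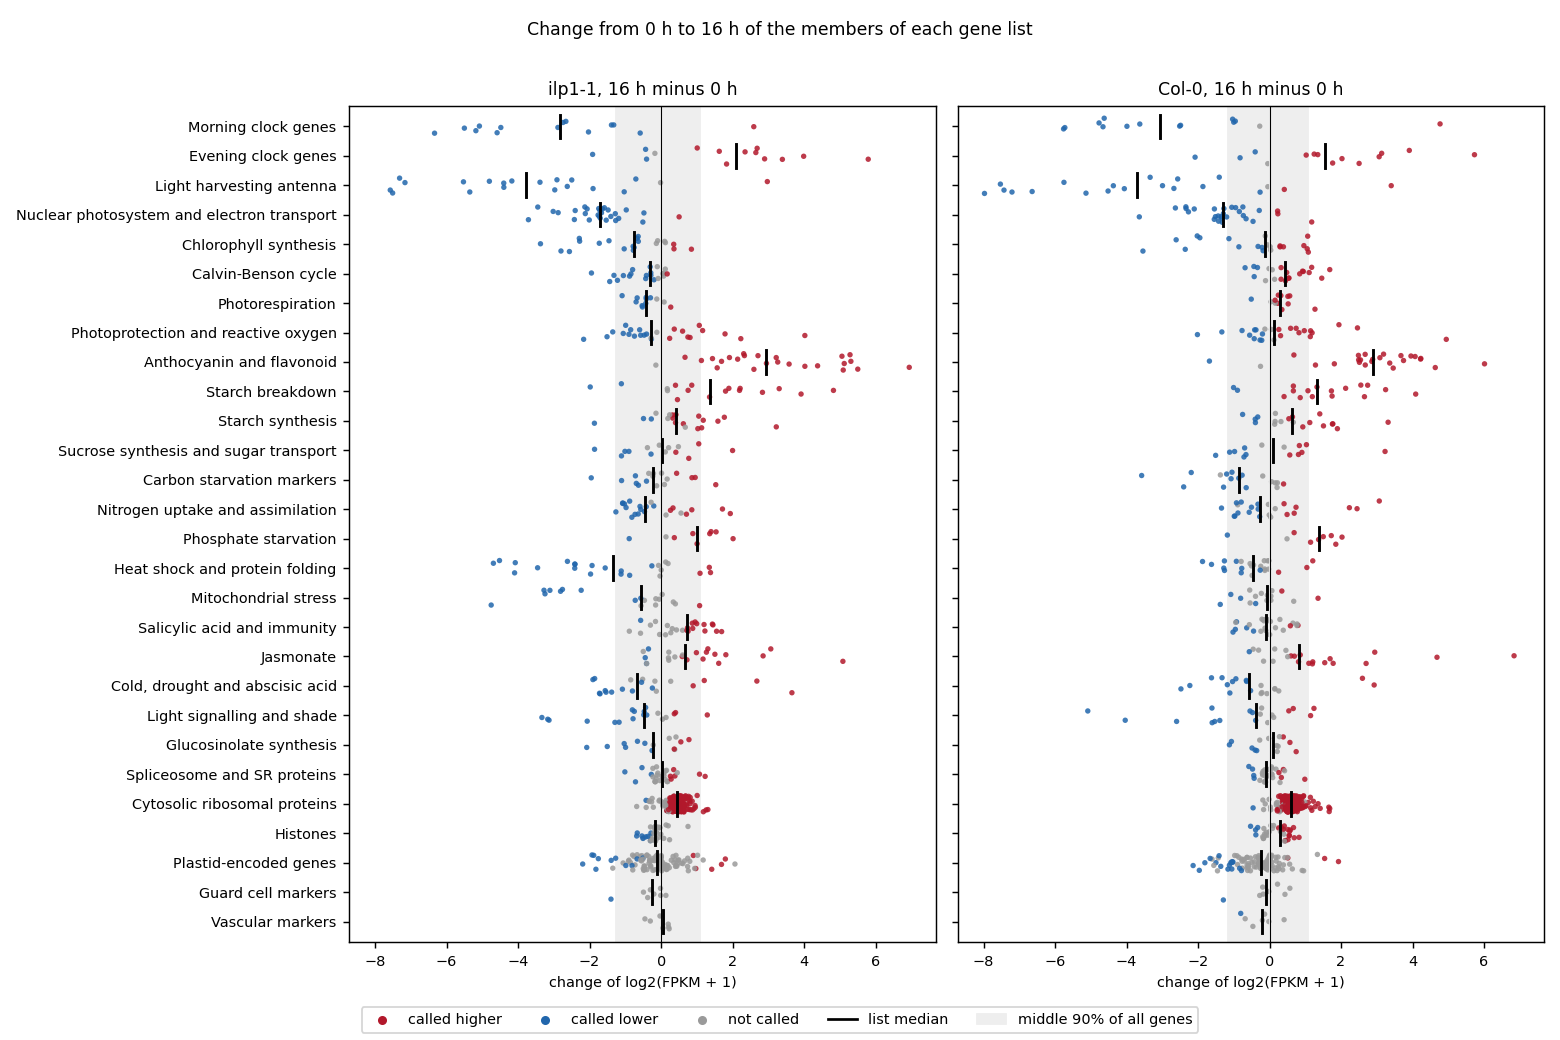
Change from 0 h to 16 h as a difference of log2(FPKM + 1) for each tested member of 28 gene lists, in ilp1-1 (left) and Col-0 (right), coloured by the limma call, with list medians as bars and the middle 90% of all genes shaded. Antenna genes reach -7.58 and the anthocyanin list 6.94 in ilp1-1, while the Calvin-Benson, photorespiration and histone medians are below 0 in ilp1-1 and above 0 in Col-0.

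Few markers of single cell types were called. Guard cell markers had 0 of 8 higher and 1 lower, GORK, a potassium channel, with 1.97 and 1.304 FPKM at 16 h, against 5.22 and 6.69 FPKM at 0 h (-1.40 ± 0.20, limma adjusted p = 2.75e-05). Their summed level was 425 and 404 FPKM at 16 h and 535 and 433 FPKM at 0 h, which rests mostly on TGG1 (389.8 and 369 FPKM at 16 h and 485 and 392 FPKM at 0 h). Vascular markers had 0 of 7 called, with sums of 109.8 and 91.4 FPKM at 16 h and 107 and 87.2 FPKM at 0 h. Of 6 meristem and flower markers 2 were tested and 0 called, 3 and 2 of the 6 being at 0 in the 16 h libraries and 3 and 2 in the 0 h libraries. Of 5 root markers 2 were tested and 1, SHR, fell, a call lost with reads scaled to library totals and without any library but the second of 16 h, and the sums were 11.8 and 11.1 FPKM at 16 h and 16.4 and 14.8 FPKM at 0 h. The part of a shift in cell types in the results above was not tested.

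Set against Col-0, many called changes of ilp1-1 were shared. Of 4189 genes higher in ilp1-1 at 16 h, 2314 were also higher in Col-0 with no called difference, and of 4262 lower, 2050 were also lower in Col-0 with none. The change itself differed for 2740 genes (14.2%), 888 (4.60%) of them higher and 1852 (9.59%) lower in ilp1-1, and for 734 (3.80%) by at least 2-fold. The excess of lower genes depends on the scaling: on library totals 1887 were higher and 1204 lower. The count of higher genes was 574 without the second Col-0 library of 0 h and 540.0 without the second ilp1-1 library of 16 h. Opposite calls were made for 53 genes higher in ilp1-1 and lower in Col-0 and 243 lower in ilp1-1 and higher in Col-0. A further 274 genes rose and 482 fell in ilp1-1 alone, with a called difference, and 444 rose and 239 fell in Col-0 alone, also with one.

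The 8 genes with the lowest differences include several that were high in ilp1-1 at 0 h. AT4G12735 had 3.59 and 0 FPKM at 16 h and 0.687 and 1.42 FPKM at 0 h in Col-0, and its difference was -5.71 ± 0.78 (limma adjusted p = 0.000114). AT2G42065, listed as a DnaJ-like gene, had 0.244 and 0.170 FPKM at 16 h, against 23.46 and 20.7 FPKM at 0 h, in ilp1-1 and 0.214 and 0 FPKM at 16 h, against 0 and 0 FPKM at 0 h, in Col-0 (-4.40 ± 0.24, limma adjusted p = 6.23e-08). AT3G58150 had 0.657 and 0.775 FPKM at 16 h, against 15.4 and 15.1 FPKM at 0 h, in ilp1-1 and 2.16 and 0.933 FPKM at 16 h, against 0.760 and 0.855 FPKM at 0 h, in Col-0 (-3.70 ± 0.36, limma adjusted p = 5.48e-06). In these 3 genes the ilp1-1 libraries of 0 h stood alone above the other 6. AT5G43455, listed as a tRNA precursor, had 29.95 and 32.8 FPKM at 0 h in ilp1-1 and was listed at 0 in both 16 h libraries and in all 4 Col-0 libraries, so its fitted difference is no bound. AT4G08555 fell in ilp1-1, with 11.8 and 14.4 FPKM at 16 h, against 69.5 and 86.3 FPKM at 0 h, and rose in Col-0, with 14.1 and 10.14 FPKM at 16 h, against 1.61 and 2.38 FPKM at 0 h (-4.61 ± 0.37, limma adjusted p = 1.16e-06).

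In the other direction, BCB, a copper protein of stress, rose in ilp1-1, with 33.9 and 49.6 FPKM at 16 h, against 9.08 and 17.0 FPKM at 0 h, and fell in Col-0, with 22.9 and 14.4 FPKM at 16 h, against 38.5 and 42.7 FPKM at 0 h, a difference of 2.75 ± 0.40 (limma adjusted p = 0.000218). CAD8, a cinnamyl alcohol dehydrogenase-like gene, had 6.74 and 5.57 FPKM at 16 h, against 1.32 and 1.03 FPKM at 0 h, in ilp1-1 and 4.996 and 2.23 FPKM at 16 h, against 7.05 and 12.3 FPKM at 0 h, in Col-0 (2.95 ± 0.64, limma adjusted p = 0.00539). LHCB1.4 fell less in ilp1-1, with 28.5 and 25.3 FPKM at 16 h, against 1004 and 1284 FPKM at 0 h, than in Col-0, with 7.22 and 9.57 FPKM at 16 h, against 2427 and 2269.8 FPKM at 0 h (2.62 ± 0.30, limma adjusted p = 2.38e-05). For BCB and CAD8 the Col-0 libraries of 0 h were above those of ilp1-1, and for LHCB1.4 the genotypes were apart at both times. The split of reads among near-identical LHCB1 copies is uncertain, which limits the value of LHCB1.4. LHCB1.1 and LHCB1.2 differed by 0.02 and 0.22, which did not pass, and LHCB1.3 by -1.06. NIT2, a nitrilase, did not pass in ilp1-1, with 4.86 and 5.66 FPKM at 16 h and 5.11 and 16.7 FPKM at 0 h, and fell in Col-0, with 1.27 and 2.19 FPKM at 16 h and 13.3 and 69.8 FPKM at 0 h, where the 2 libraries of 0 h lay far apart. TRNS.3, a plastid tRNA gene, had 1.48 and 3.87 FPKM at 16 h and was listed at 0 in both 0 h libraries of ilp1-1.

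**Figure D4:**
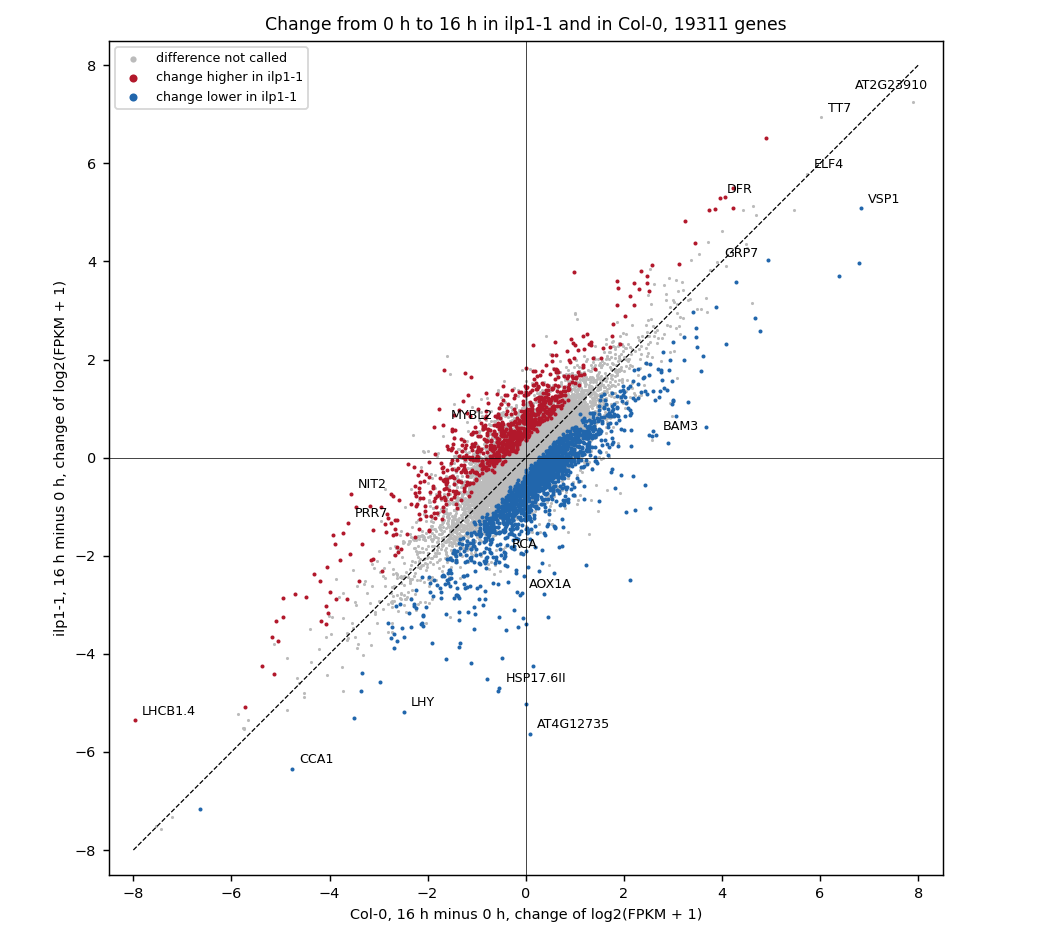
Each point is 1 of 19311 genes, with the change from 0 h to 16 h in Col-0 across and in ilp1-1 upward, both as differences of log2(FPKM + 1), coloured where the difference between genotypes was called and with equal changes on the dashed line. Most points follow the line, 888 called genes lie above it and 1852 below, and AT4G12735 and HSP17.6II lie near 0 in Col-0 and at -5.62 and -4.69 in ilp1-1.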

How the data were processed

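Poly-A RNA of whole leaves was sequenced in 20 libraries, 2 for each of 5 times in ilp1-1 and Col-0. Per the submitters' processing notes reads were aligned to TAIR10 with HISAT2 2.0.5 and counted with featureCounts 1.5.0-p3. The sources used here give no strand or other options, so reads of overlapping genes may be shared. The authors deposited FPKM values of 33104 genes in 10 tables. FPKM times gene length were whole multiples of 1 step for every value (within 0.001 reads), which gave the reads per library.

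Genes of at least 1 FPKM in 2 libraries (19311) were fitted as log2(FPKM + 1) with limma 3.58.1 (R 4.3.3, empirical Bayes with trend). The fit used 10 group means, so all 20 libraries set the spread. Recovered reads scattered within a group by a chi-square per degree of freedom of 8.21 in ilp1-1 at 0 h and 4.26 at 16 h. In Col-0 these values were 4.65 at 0 h and 4.38 at 16 h. The shared spread may thus understate the scatter of ilp1-1 at 0 h. The change of ilp1-1, that of Col-0 and their difference were tested, with Benjamini-Hochberg adjusted p under 0.05 as the threshold. The difference between genotypes uses both changes, and the change of ilp1-1 shares no library with that of Col-0. Other steps ran in Python 3.11.15 with pandas 2.3.3, and matplotlib 3.10.9 drew the figures.

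Named genes are ILP1, the 15 highest and 15 lowest changes of ilp1-1 (passing, groups apart, at least 5 FPKM in the higher group), the 8 highest and 8 lowest differences, and up to 4 members of each list by adjusted p. Other members named were chosen after their values were seen. The lists (30, with 875 members, of which 811 were tested) and the comparison were chosen with earlier results of these data known.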

Additional observations from a re-analysis of the deposited data

Results flagged for a closer look

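For 71 of the genes named, the change from 0 h to 16 h in ilp1-1 differed from that in Col-0 by at least 2-fold on the fitted scale, by limma's test of the difference itself with adjusted p under 0.05. Each value is the change in ilp1-1 minus the change in Col-0, as a difference of log2(FPKM + 1). ILP1 itself had -1.08, and GORK, a guard cell potassium channel, -1.83. Among clock and light-signalling genes the differences were 2.31 for PRR7, 1.75 for PIF4, -1.57 for CCA1, -1.66 for RVE8, -2.18 for RVE2 and -2.69 for LHY. In light harvesting, photosystem and carbon fixation they were 2.62 for LHCB1.4, -1.06 for LHCB1.3, -1.11 for PSAN, -1.11 for PRK, -1.26 for PLGG1, -1.38 for RBCS2B, -1.52 for RCA, -1.57 for CP12-2 and -1.63 for RBCS1B. Of anthocyanin and phenylpropanoid genes the values were 2.35 for MYBL2, 1.33 for DFR, 1.31 for TT19, 1.27 for UGT75C1, 1.24 for LDOX and -1.80 for SNG1. For starch and sugar they came to 1.58 for ISA3, 1.18 for PHS2, 1.12 for PHS1, 1.02 for DPE2, -1.11 for GBSS1, -1.23 for SWEET12, -1.39 for PWD and -2.20 for BAM3. The carbon starvation markers and nitrogen differed by 2.28 for TPS11, 1.85 for SEN1, 1.62 for TPS8, 1.32 for PRODH1, 1.23 for GLN1.1, -2.21 for BT2 and -3.30 for BT1. Under heat shock and folding the differences were 1.596 for BIP3, -1.48 for HSP101, -1.69 for HSFA2, -2.47 for HSP70-4, -3.59 for HSP23.5, -3.73 for HSP17.6A and -4.15 for HSP17.6II. For mitochondrial stress the values were -1.43 for NDA1, -2.27 for UPOX, -2.69 for AOX1A, -2.70 for UGT74E2, -2.88 for ANAC013 and -4.20 for AT2G41730. Genes of defence, jasmonate, cold and oxidative stress had differences of 1.22 for GSTF6, 2.75 for BCB, 1.45 for COR15A, 1.05 for EDS1, -1.33 for P5CS1, -1.48 for JAZ9, -1.75 for VSP1 and -2.04 for ZAT12. The genes of no list had values of 3.46 for TRNS.3, 2.95 for CAD8, 2.83 for NIT2, 2.80 for AT3G04165, 2.77 for AT1G05340, 2.50 for AT5G39520, 1.63 for AT3G25795, -3.70 for AT3G58150, -4.40 for AT2G42065, -4.61 for AT4G08555 and -5.71 for AT4G12735. AT5G43455 had a fitted -5.01, which is no bound, since 6 of its 8 libraries are listed at 0. TRNS.3, also listed at 0 in both ilp1-1 libraries of 0 h, is subject to the same limit and, at 87 bases, rests on few reads. The split of reads among near-identical copies of LHCB1, and among those of RBCS, is uncertain, which limits their values too. In these data the strongest negative values, those of AT4G12735, AT4G08555, AT2G42065, AT2G41730 and HSP17.6II, belong to genes whose ilp1-1 libraries at 0 h were above both Col-0 libraries of 0 h. The difference of AT3G25795 was 0.31 with a pseudocount of 0.1 and -0.64 in limma-voom on recovered reads, and did not pass in either. Calls of NIT2, UGT75C1, VSP1, AT1G05340, AT5G39520, AT3G04165, BIP3, HSP17.6A, SEN1, TRNS.3 and ILP1 were lost under 1 or more of the alternatives.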

How the results depend on the processing

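Genes called in ilp1-1 numbered 6742 to 9410 under alternatives of pseudocount, filter, scaling, spread and model, against 8451, and 6756 to 7307 with 1 library left out. With reads scaled to library totals 6544 were called higher; no other of these settings moved a count of ilp1-1 or Col-0 by over 1.5 times. Genes with a higher change in ilp1-1 than in Col-0 (888) numbered 1887 with reads scaled to library totals, 565 with the spread taken from the 8 libraries compared, and 540.0 to 837 with 1 library left out. Those with a lower change (1852) numbered 1204 with reads scaled to library totals. Of the named genes' changes in ilp1-1 under single alternatives, 2511 kept their direction and side of the threshold, 32 lost the call and 4 gained one. Another 2 turned round, GLN2 (0.031) and RBCS2B (0.038), both with reads scaled to library totals. A further 12 also changed sign, of genes that passed neither in the main fit nor under that alternative. The difference of AT3G25795 turned to -0.64 in limma-voom on recovered reads. The cause was not tested. With a replicate block 8379 genes were called in ilp1-1, 8076 in Col-0 and 2690 for the difference, and it changed no count by over 1.5 times. Deviations of same-numbered libraries had a correlation of 0.083 between 16 h and 0 h of ilp1-1 and 0.034 in Col-0, so the numbers were not treated as pairs. At 11387202 to 18951402 reads per library, genes near 1 FPKM rest on few reads, and 2 libraries per group limit every value.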
